A study of Mus musculus with 8 samples.

Results

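The AP-1 and Egr immediate-early factors are 10 genes chosen by symbol, Fos, Fosb, Fosl2, Jun, Junb, Jund, Egr1, Egr2, Egr3 and Atf3, out of 23337 genes in the table of raw counts; 10 of 10 symbols were found. RNA was sequenced from bone marrow of C57BL/6 mice aged 4 months that carry an activated kinase on 1 allele (JAK2V617F/+), the change that drives polycythemia vera. The 4 groups were TER119-positive erythroblasts labelled JAK2V617F/+ Plek2-/-, erythroblasts labelled JAK2V617F/+ Plek2+/+, Kit-positive cells of the lineage-negative fraction (progenitors from here on) labelled JAK2V617F/+ Plek2-/-, and progenitors labelled JAK2V617F/+ Plek2+/+, with 2 libraries each. Plek2 encodes pleckstrin-2, a protein of erythroid cells that binds membrane phosphoinositides and acts on the actin cytoskeleton. Every group carries JAK2 V617F, so no comparison here shows what that change does. The sources used here do not give how JAK2 V617F is driven, which stretch of Plek2 is deleted, or whether replicate libraries stem from different mice; p-values therefore measure the spread between samples, which may be technical.

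Immediate-early genes are transcribed within minutes of a growth factor, cytokine or stress signal, without new protein being made, and their short-lived RNAs and proteins decay soon after. Fos and Jun proteins pair through leucine zippers into the dimeric factor AP-1, in which Fos family members need a Jun family partner to bind DNA while Jun proteins can also pair with each other. Egr proteins bind GC-rich sites through zinc fingers and are induced, like Fos, by serum response factor and its ternary complex partners under ERK signalling. In bone marrow these factors take part in monocyte and granulocyte differentiation, and their RNAs are also known to rise when tissue is dissociated or cells are sorted.

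Total counts ran from 16038035 to 23521726 per library. The upper limit for a gene without reads, 3 counts, lay at 0.128 to 0.187 CPM (read counts scaled to equal library totals), for counting error only. Other CPM here are on TMM-scaled totals (library totals times a factor per library) unless stated. On that scale the limit was 0.204 to 0.235 CPM in erythroblasts labelled Plek2-/-. Plek2 RNA went with the label in erythroblasts (48.2 to 53.1 CPM under Plek2-/- against 108 to 129 CPM under Plek2+/+) and against it in progenitors (5.06 to 5.67 CPM under Plek2-/- against 0.708 to 1.36 CPM under Plek2+/+), so Plek2-/- and Plek2+/+ name labels of libraries throughout. Xist, transcribed from the inactive X chromosome of females, stood at 2.13 to 3.60 CPM in the Plek2-/- libraries and at 2523 to 3044 CPM in the Plek2+/+ libraries, so sex and genotype label cannot be told apart in any genotype comparison. The 12 erythroblast markers summed to 102255 to 125702 CPM in erythroblasts and 1073 to 1245 CPM in progenitors, and the 11 progenitor markers in the table to 861 to 1185 CPM in erythroblasts and 3867 to 4694 CPM in progenitors. Each population therefore carried its own markers, but both also held neutrophil RNA, given below beside the results.

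The 10 genes lie on 9 chromosomes of GRCm38, with Junb and Jund both on chromosome 8, and their genomic span ran from 1.67 kb (Jund) to 47.7 kb (Atf3), with a median of 5.29 kb. Fos lies on chromosome 12 from 85473890 to 85477273, 6.57 Mb from Plek2 on the same chromosome. Exons of Jund overlap those of Gm11175 on the opposite strand, and the sources used here do not say whether reads were counted by strand, so reads of this pair may not be told apart. The promoters of the 4 members that rose in progenitors labelled Plek2-/- (Fos, Junb, Fosl2 and Atf3) are shown beside those of Jun and Egr2, which did not pass the test there. Each window holds 250 bases before and 50 after a RefSeq start on GRCm38.p6, written 5′ to 3′ on the gene's strand. Capitals mark matches, on either strand, to TGACG (the core of the cyclic AMP response element, bound by CREB and ATF proteins), TGACNTCA (the wider site of these factors and of Jun with ATF2), TGANTCA (the AP-1 site), the CArG box (bound by serum response factor), TTCNNNGAA (the STAT site) or GCGNGGGCG (the Egr site).
Fos (chr12:85473640-85473939, plus strand): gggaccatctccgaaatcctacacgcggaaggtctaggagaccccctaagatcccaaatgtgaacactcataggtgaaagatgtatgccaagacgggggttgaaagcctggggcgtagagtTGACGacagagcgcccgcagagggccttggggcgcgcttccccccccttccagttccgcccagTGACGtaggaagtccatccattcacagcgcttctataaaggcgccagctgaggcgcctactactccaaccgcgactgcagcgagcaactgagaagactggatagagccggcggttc
Junb (chr8:84978699-84978998, minus strand): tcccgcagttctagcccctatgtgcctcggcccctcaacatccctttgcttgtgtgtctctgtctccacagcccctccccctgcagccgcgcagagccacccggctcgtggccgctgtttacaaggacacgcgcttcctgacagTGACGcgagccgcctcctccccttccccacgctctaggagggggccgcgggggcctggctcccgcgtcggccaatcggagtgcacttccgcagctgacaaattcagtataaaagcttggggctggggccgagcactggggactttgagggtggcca
Fosl2 (chr5:32136222-32136521, plus strand): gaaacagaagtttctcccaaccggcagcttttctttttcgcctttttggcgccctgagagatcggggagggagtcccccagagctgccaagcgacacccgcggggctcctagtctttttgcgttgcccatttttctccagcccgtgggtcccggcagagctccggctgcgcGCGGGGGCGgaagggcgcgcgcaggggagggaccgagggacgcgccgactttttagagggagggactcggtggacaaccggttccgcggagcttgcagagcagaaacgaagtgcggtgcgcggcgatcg
Atf3 (chr1:191183284-191183583, minus strand): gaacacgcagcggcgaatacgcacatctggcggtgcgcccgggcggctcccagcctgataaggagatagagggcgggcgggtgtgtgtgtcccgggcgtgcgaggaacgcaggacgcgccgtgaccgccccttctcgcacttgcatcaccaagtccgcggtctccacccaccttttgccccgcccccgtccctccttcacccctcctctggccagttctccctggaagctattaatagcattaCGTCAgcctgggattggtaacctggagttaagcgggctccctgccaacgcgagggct
Jun (chr4:95052173-95052472, minus strand): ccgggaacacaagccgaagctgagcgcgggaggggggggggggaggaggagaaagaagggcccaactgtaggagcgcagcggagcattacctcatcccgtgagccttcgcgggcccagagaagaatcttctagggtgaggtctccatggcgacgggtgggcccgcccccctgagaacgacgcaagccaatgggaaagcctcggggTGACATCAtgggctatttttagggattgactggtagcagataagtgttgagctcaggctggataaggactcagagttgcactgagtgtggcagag
Egr2 (chr10:67537619-67537918, plus strand): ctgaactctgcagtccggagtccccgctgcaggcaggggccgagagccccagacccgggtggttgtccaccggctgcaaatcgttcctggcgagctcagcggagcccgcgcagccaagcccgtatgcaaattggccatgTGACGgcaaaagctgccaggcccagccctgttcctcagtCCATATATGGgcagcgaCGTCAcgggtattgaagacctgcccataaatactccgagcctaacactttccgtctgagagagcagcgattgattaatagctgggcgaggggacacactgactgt

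RefSeq windows of 8 of 10 members, 12 windows in all, were searched. Windows on chromosome 18, where Egr1 lies, were left out for members but kept among all windows. No window of Egr1 was therefore searched, and Egr3, on chromosome 14, had no window to search. The counts below do not cover these 2 genes. TGACG was found in 7 of the 12 windows, from 5 of the 8 members, and in 20.8% of all 32851 windows of this length. Windows of Egr2 overlap in part, so they repeat some matches. A TGACNTCA site with G in the free position also contains TGACG. Among the 4 members that rose, Fos holds TGACG with its first base 129 and 66 bases before the start, Junb 106 bases before it and Atf3, on the other strand, 7 bases before it, while Fosl2 holds GCGNGGGCG at 79 bases before the start and no TGACG. Jun holds TGACNTCA, as TGACATCA, 45 bases before the start, a match that 8.83% of all windows have. The CArG box was matched in windows of 1 member, Egr2, against 1.63% of all windows. Neither TGANTCA nor TTCNNNGAA was matched in the 12 windows (7.81% and 8.30% of all windows hold them). These matches describe letters in the windows and show no binding.

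Within each cell type the family was unequal in level. Per kilobase of exon, mean levels in progenitors labelled Plek2-/- ran from 107 CPM per kb for Junb and 90.0 for Fos through 53.9 for Jun and 36.2 for Jund to 0.359 for Egr2 and 0.0876 for Egr3. In erythroblasts labelled Plek2-/- the order began with Jund at 65.6 CPM per kb, Junb at 41.4 and Fos at 27.8, with Jun at 7.47. Jund, the Jun member that is transcribed steadily rather than on induction, thus led the family in erythroblasts and stood behind Junb, Fos and Jun in progenitors, under both labels. Fos, Jun and Junb together took 49.1% to 56.2% of the reads of the 10 genes in the 4 erythroblast libraries and 68.8% to 75.2% in the 4 progenitor libraries, while Egr1, Egr2 and Egr3 took 0.776% to 1.43% in erythroblasts and 2.44% to 4.60% in progenitors.

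**Figure D1:**
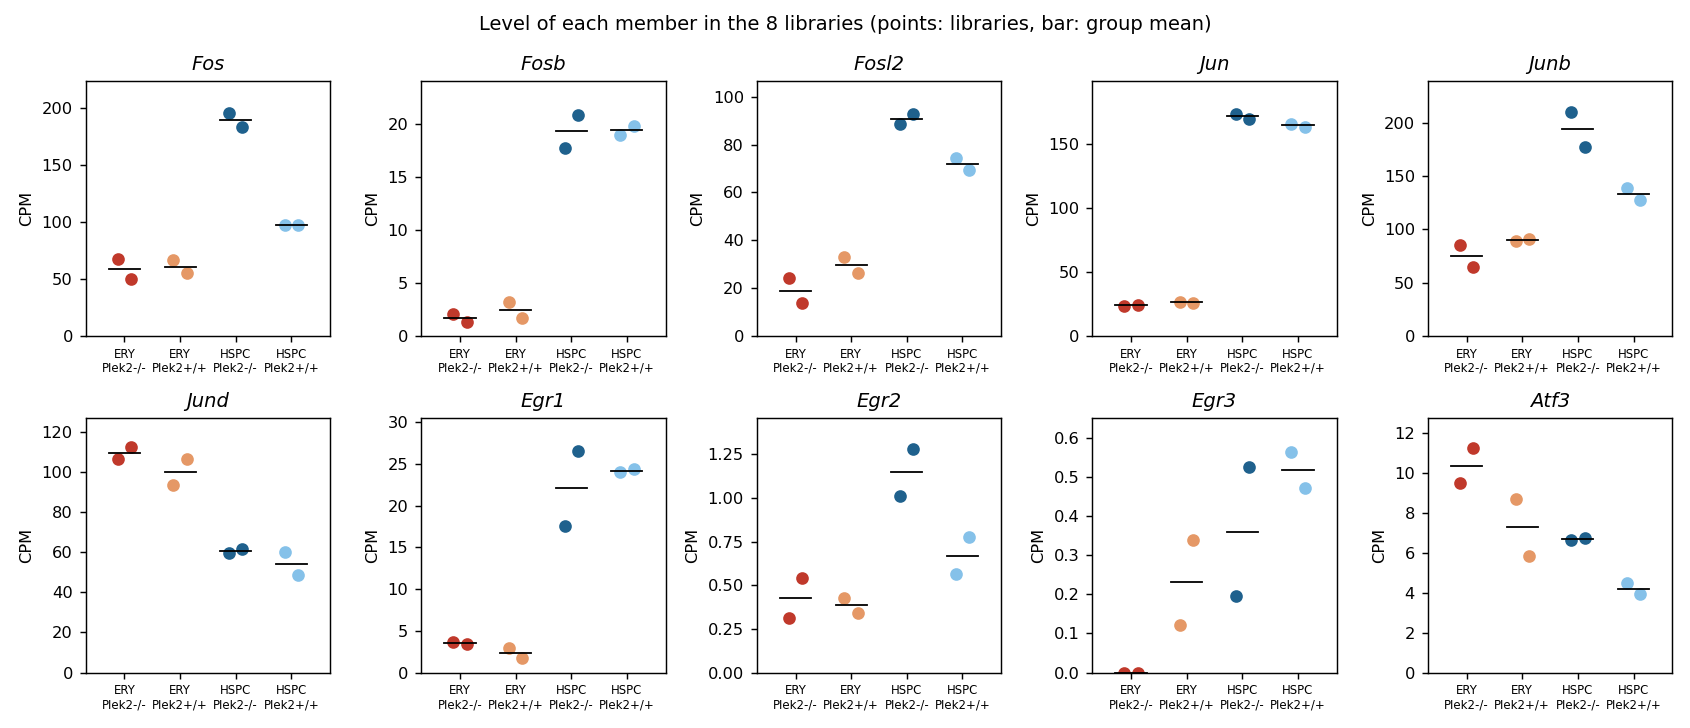
Level of each member in CPM on TMM-scaled totals (y axes, linear from 0) in the 2 libraries of each group (points), with the group mean (bar); ERY are erythroblasts and HSPC progenitors. Fos stands at 183 and 196 CPM in the progenitors labelled Plek2-/-, above the other 6 libraries, while Jun stands at 163 to 174 CPM in all 4 progenitor libraries.

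In progenitors, the comparison of Plek2-/- with Plek2+/+ libraries asks how the label goes with expression upstream of the red cell lineage. Here 4 of 10 members rose and 0 fell: Fos, Junb, Fosl2 and Atf3. Over all 13168 genes tested 4.91% passed, 4.5% as higher and 0.402% as lower (593 and 53 genes; 527 and 133 with library sizes only). The other 6 members did not pass. The median log2 fold change was 0.29 over the 10 members and -0.01 over all genes tested.

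Fos, the main inducible partner of Jun proteins, stood at 196 and 183 CPM in progenitors labelled Plek2-/- and at 97.8 and 97.5 CPM in those labelled Plek2+/+. The lower of the Plek2-/- values was far above both Plek2+/+ values, which differed from each other by less than 1 CPM. The log2 fold change was 1.0 (SE 0.06, 95% interval 0.85 to 1.15, 2.0-fold, edgeR adjusted p = 0.000525), and Fos stayed called in 11 of 11 alternatives. Folds come from fits scaled within 1 population, so they differ slightly from ratios of the CPM given here.

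Junb, a Jun member that is itself induced by cytokines and restrains proliferation of myeloid cells, stood at 210.2 and 177 CPM under Plek2-/- and at 139 and 128 CPM under Plek2+/+ in progenitors. Junb rose 1.5-fold (log2 0.58, SE 0.09, edgeR adjusted p = 0.0109). Fosl2, which encodes the Fos-related protein Fra-2 of slower kinetics, stood at 88.6 and 93.0 CPM under Plek2-/- and at 74.2 and 69.5 CPM under Plek2+/+. It rose 1.30-fold (log2 0.38, SE 0.07, edgeR adjusted p = 0.0211). Atf3, a stress-induced repressor that pairs with Jun proteins, stood at 6.62 and 6.75 CPM under Plek2-/- and at 4.46 and 3.95 CPM under Plek2+/+. It rose 1.65-fold (log2 0.72, SE 0.15, edgeR adjusted p = 0.0371), at a level far below that of Fos on the same CPM scale per kilobase (3.10 against 90.0 CPM per kb under Plek2-/-).

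The calls of Junb, Fosl2 and Atf3 depended on single libraries. Without the Plek2+/+ progenitor replicate 2 Fos alone remained called (edgeR adjusted p = 0.112 for Junb, 0.430 for Fosl2 and 0.371 for Atf3), and without Plek2+/+ replicate 1 Fosl2 (edgeR adjusted p = 0.124) and Atf3 (edgeR adjusted p = 0.0902) were lost. DESeq2 did not call Atf3 (adjusted p = 0.0847), and the fit of all 8 libraries called neither Fosl2 (edgeR adjusted p = 0.314) nor Atf3 (edgeR adjusted p = 0.0841).

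Jun, the central AP-1 subunit, stood at 174 and 169.9 CPM under Plek2-/- and at 166 and 163 CPM under Plek2+/+ in progenitors. The groups lay close, and the 95% interval of the log2 fold change ran from -0.04 to 0.24 (estimate 0.10, edgeR adjusted p = 0.454). Fosb, a Fos paralogue with similar induction, overlapped between labels at 17.8 and 20.9 CPM under Plek2-/- against 19.0 and 19.9 CPM under Plek2+/+ (log2 0.04, 95% interval -0.21 to 0.29, edgeR adjusted p = 0.905). Egr1, which is induced through the same upstream kinases as Fos, also overlapped, at 17.6 and 26.5 CPM under Plek2-/- against 24.0 and 24.3 CPM under Plek2+/+ (log2 -0.09, 95% interval -0.47 to 0.30, edgeR adjusted p = 0.855). Here the spread lay in the Plek2-/- pair: without its replicate 2, at 26.5 CPM, Egr1 was called lower at log2 -0.41 (edgeR adjusted p = 0.00719), and without its replicate 1 the estimate was 0.17.

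Jund stood at 59.5 and 61.4 CPM under Plek2-/- and at 59.9 and 48.6 CPM under Plek2+/+ in progenitors (log2 0.20, 95% interval -0.04 to 0.44, edgeR adjusted p = 0.386). Egr2, a regulator of macrophage fate and lymphocyte tolerance, had 26 and 39 reads under Plek2-/- and 12 and 23 under Plek2+/+; its log2 value of 0.79 had an unadjusted p of 0.0396 and an edgeR adjusted p of 0.257. Egr3, an Egr factor best known in lymphocytes, had 5 and 16 reads under Plek2-/- against 12 and 14 under Plek2+/+. The 95% intervals of the log2 fold change were wide, 0.05 to 1.54 for Egr2 and -1.58 to 0.75 for Egr3.

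**Figure D2:**
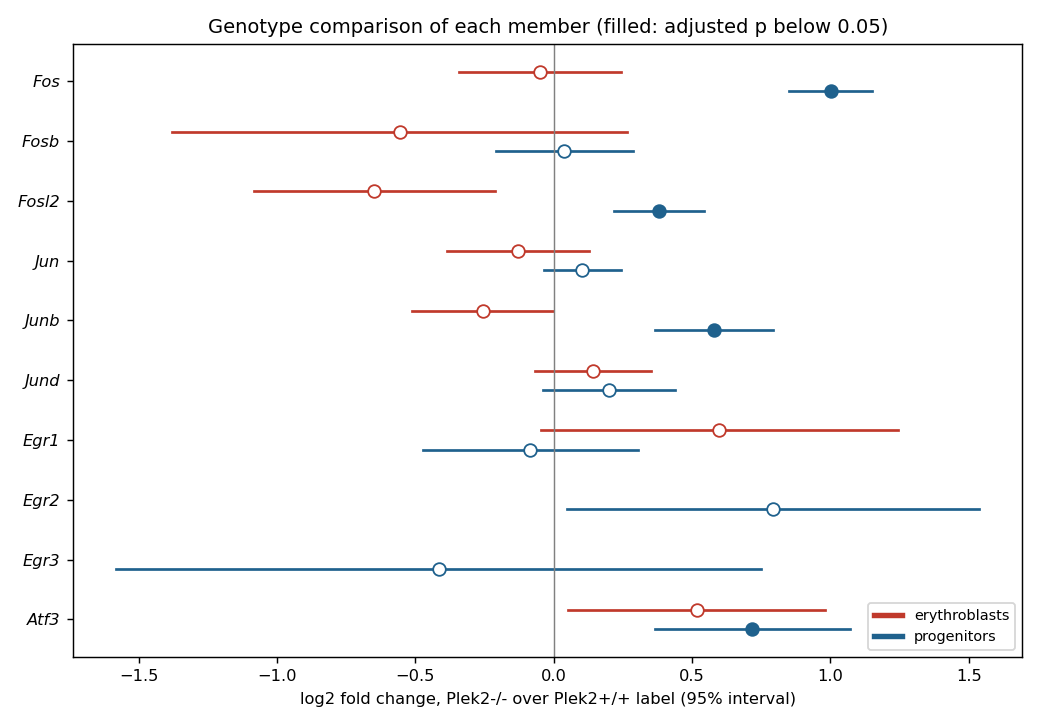
Log2 fold change of each member, Plek2-/- over Plek2+/+ label (x axis), with its 95% interval from the edgeR quasi-likelihood fit of each population; filled points have an adjusted p below 0.05. Fos, Fosl2, Junb and Atf3 are filled in progenitors, no member is filled in erythroblasts, and Egr2 and Egr3 were not tested there.

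A ratio of reads within a library does not depend on how libraries are scaled. Progenitors labelled Plek2-/- held 1.128 and 1.079 Fos reads per Jun read, against 0.588 and 0.596 in progenitors labelled Plek2+/+. The means were 1.103 ± 0.0344 and 0.592 ± 0.00588 (SD, n = 2 each). Junb reads per Jun read stood at 1.21 and 1.04 under Plek2-/- and at 0.837 and 0.781 under Plek2+/+. Fos thus passed Jun in read number in the Plek2-/- progenitors and lay below it in the Plek2+/+ progenitors. Erythroblasts held more Fos than Jun reads under both labels, 2.84 and 2.09 per Jun read under Plek2-/- and 2.48 and 2.16 under Plek2+/+, with overlap between labels.

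RNA of neutrophils moved with the label in progenitors. The 15 neutrophil markers in the table summed to 19354 and 25918 CPM in progenitors labelled Plek2-/- and to 7794 and 4808 CPM in those labelled Plek2+/+; 14 of 15 rose, 0 fell (median log2 1.61), and no marker was at 0 in any library. Cxcr2, the chemokine receptor of mature neutrophils, rose 2.86-fold (edgeR adjusted p = 0.000930) and the granule gene Ltf 4.30-fold (edgeR adjusted p = 0.00529). Monocyte and macrophage markers had 0 of 15 higher and 1 lower in the same comparison, with 9 at an unadjusted p below 0.05 and a median log2 of 0.24. Of 10 eosinophil, basophil and mast cell markers tested 1 fell, with 7 at an unadjusted p below 0.05 (median log2 -0.48), at sums of 1397 to 2445 CPM under Plek2-/- and 2942 to 3671 CPM under Plek2+/+. Between the Plek2-/- progenitor libraries the one with the higher neutrophil sum (25918 CPM) had the lower Fos level (183 CPM), and the Plek2+/+ libraries had Fos at 97.8 and 97.5 CPM at neutrophil sums of 7794 and 4808 CPM. Fosl2 and Atf3 were higher in the library with the higher neutrophil sum within both labels (Fosl2 93.0 against 88.6 CPM under Plek2-/- and 74.2 against 69.5 CPM under Plek2+/+, Atf3 6.75 against 6.62 CPM under Plek2-/- and 4.46 against 3.95 CPM under Plek2+/+). Junb was lower in that library under Plek2-/- (177 against 210.2 CPM) and higher in it under Plek2+/+ (139 against 128 CPM). The Plek2+/+ erythroblasts had neutrophil sums of 19711 and 22715 CPM, in the range of the Plek2-/- progenitors, with Fos at 66.2 and 55.5 CPM. The part of neutrophil RNA, or of the other markers, in the rise of Fos, Junb, Fosl2 and Atf3 was not tested, and in bulk RNA more cells of a type cannot be told from more RNA per cell.

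**Figure D3:**
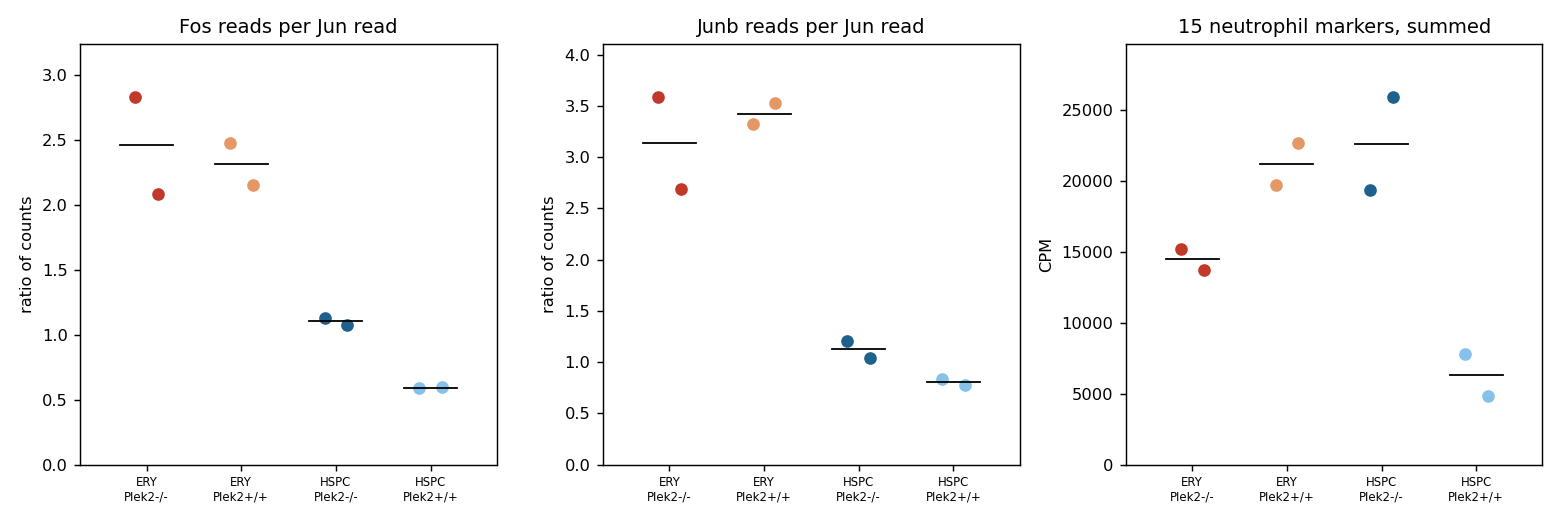
Reads of Fos and of Junb per read of Jun (left and middle, ratio of counts) and the summed level of 15 neutrophil markers (right, CPM) in the 2 libraries of each group (points), with the group mean (bar). In progenitors the Fos to Jun ratio is 1.079 to 1.128 under Plek2-/- and 0.588 to 0.596 under Plek2+/+, and the neutrophil sum is also higher under Plek2-/-; in erythroblasts the neutrophil sum is lower under Plek2-/- while the ratios overlap.

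In erythroblasts the same comparison asks how the label goes with expression in the cells where Plek2 is abundant. No member passed edgeR's test: 0 of 8 tested, with 3 at an unadjusted p below 0.05 (Fosl2, Junb and Atf3), against 2.84% of 12241 genes called, 0.18% as higher and 2.66% as lower. DESeq2 and limma-voom also called 0 members. Egr2 and Egr3 fell below the filter on low counts, with 4 to 8 and 0 to 5 reads per library.

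Fos stood at 67.4 and 49.8 CPM in erythroblasts labelled Plek2-/- and at 66.2 and 55.5 CPM in those labelled Plek2+/+. The groups overlapped, and the 95% interval of the log2 fold change ran from -0.34 to 0.24 (estimate -0.05, edgeR adjusted p = 0.917), which leaves out the 2.0-fold rise of progenitors. Junb stood at 85.4 and 64.2 CPM under Plek2-/- and at 88.9 and 90.7 CPM under Plek2+/+ (log2 -0.26, SE 0.12, edgeR adjusted p = 0.339). Fosl2 stood at 24.0 and 13.9 CPM under Plek2-/- and at 32.8 and 26.5 CPM under Plek2+/+ (log2 -0.65, SE 0.20, edgeR adjusted p = 0.122). With 1 library left out the log2 fold change ran from -0.48 to -0.07 for Junb and from -1.09 to -0.30 for Fosl2. The lowest value of each came without the Plek2-/- erythroblast replicate 1. Fosl2 was called lower without the filter on low counts (edgeR adjusted p = 0.000133).

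Atf3 stood at 9.47 and 11.2 CPM under Plek2-/- and at 8.69 and 5.84 CPM under Plek2+/+ in erythroblasts (log2 0.52, SE 0.21, edgeR adjusted p = 0.273). Egr1 stood at 3.68 and 3.47 CPM under Plek2-/- and at 2.94 and 1.76 CPM under Plek2+/+ (log2 0.60, SE 0.30, edgeR adjusted p = 0.385), from 26 to 51 reads per library. Both lay higher under Plek2-/- but did not pass. Jun was steady within each label, at 23.8 and 23.9 CPM under Plek2-/- and at 26.7 and 25.7 CPM under Plek2+/+ (log2 -0.13, SE 0.12, edgeR adjusted p = 0.681). Jund (log2 0.14, edgeR adjusted p = 0.548) and Fosb (log2 -0.56, SE 0.38, edgeR adjusted p = 0.548) overlapped between labels.

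Neutrophil markers moved the other way in this population: they summed to 15241 and 13709 CPM in erythroblasts labelled Plek2-/- and to 19711 and 22715 CPM in those labelled Plek2+/+, and 11 of 15 fell. B cell markers also fell, 5 of 10, at sums of 80.2 to 113 CPM under Plek2-/- and 170.2 to 198 CPM under Plek2+/+. Eosinophil, basophil and mast cell markers fell as well, 4 of 10 tested, at sums of 969 to 1429 CPM under Plek2-/- and 2200 to 2597 CPM under Plek2+/+. Their part in the values of Junb and Fosl2 was not tested.

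Whether the label effect differed between the populations was tested as an interaction in 1 fit of all 8 libraries. It passed for 3 of 10 members, Fos, Fosl2 and Junb, each with a lower effect in erythroblasts than in progenitors, against 5.55% of 13365 genes called, 0.232% with the effect higher and 5.32% with it lower in erythroblasts. The difference of effects was -1.02 for Fos on the log2 scale (SE 0.17, edgeR adjusted p = 0.00313), -0.998 for Fosl2 (SE 0.24, edgeR adjusted p = 0.0294) and -0.80 for Junb (SE 0.17, edgeR adjusted p = 0.0125). Fos stayed called in 14 of 14 alternatives. Junb was lost without Plek2+/+ progenitor replicate 2 (edgeR adjusted p = 0.0627), and Fosl2 without that library, without Plek2+/+ progenitor replicate 1, without Plek2-/- progenitor replicate 2 or without Plek2+/+ erythroblast replicate 1 (edgeR adjusted p from 0.0568 to 0.110). Egr1 had the opposite sign, 0.71 (SE 0.36, edgeR adjusted p = 0.317), and did not pass. Atf3, called in progenitors and not in erythroblasts, had a difference of -0.17 (SE 0.28, edgeR adjusted p = 0.799), so its effects were not shown to differ.

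The populations themselves differed far more than the labels. Among Plek2+/+ libraries 6 of 10 members were lower and 2 higher in erythroblasts than in progenitors, against 73.8% of 13365 genes called, 36% as higher and 37.8% as lower. Among Plek2-/- libraries 8 of 10 were lower and 2 higher, against 76.7% called, 37.5% as higher and 39.2% as lower. With 7 in 10 genes or more called, these counts say little of the members as a list, and the sizes are the result. The median log2 fold change of the members was -0.99 among Plek2+/+ libraries (all genes -0.06) and -1.98 among Plek2-/- libraries (all genes -0.07). With library sizes only the calls were 2307 higher and 8957 lower under Plek2-/-, and 2111 higher and 9171 lower under Plek2+/+. These contrasts share libraries with the genotype comparisons.

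Egr1, Fosb and Jun had the widest gaps among members called under both labels. Egr1 was 6.19-fold lower in erythroblasts than in progenitors under Plek2-/- and 10.2-fold lower under Plek2+/+ (edgeR adjusted p = 2.31e-07 and 3.92e-08). Fosb was 11.5-fold lower under Plek2-/- and 7.76-fold lower under Plek2+/+ (edgeR adjusted p = 2.41e-08 and 6.21e-08). Jun was 7.21-fold lower under Plek2-/- and 6.28-fold lower under Plek2+/+ (edgeR adjusted p = 3.91e-12 and 6.83e-12). In these genes the populations lay further apart than the labels, which differed by up to 1.51-fold (Egr1 in erythroblasts, not called).

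Fos and Junb had narrower gaps that depended on the label. Fos was 3.24-fold lower in erythroblasts under Plek2-/- and 1.60-fold lower under Plek2+/+. Junb was 2.59-fold lower under Plek2-/- and 1.48-fold lower under Plek2+/+, and Fosl2 4.83-fold lower under Plek2-/- and 2.42-fold lower under Plek2+/+. The interaction given above is the test of these differences. Neutrophil markers were 12 of 15 higher in erythroblasts under Plek2+/+ (median log2 1.33) and 15 of 15 lower under Plek2-/- (median log2 -0.81). Monocyte and macrophage markers had 10 of 15 higher and 5 lower in erythroblasts under each label. The part of these markers in the gaps between populations was not tested. Egr2 was called under Plek2-/- (2.62-fold lower, edgeR adjusted p = 0.0114) but not under Plek2+/+ (edgeR adjusted p = 0.142), and its interaction did not pass (edgeR adjusted p = 0.707). The Egr2 call under Plek2-/- was lost with DESeq2 (adjusted p = 0.0787), without Plek2-/- erythroblast replicate 1 (edgeR adjusted p = 0.0994) and without Plek2-/- progenitor replicate 2 (edgeR adjusted p = 0.0687), and with library sizes only Egr2 was called under Plek2+/+ as well (log2 -1.61, edgeR adjusted p = 0.00599). Egr3 had 0 reads in both Plek2-/- erythroblast libraries, against 5 and 16 reads in the Plek2-/- progenitors, and 2 and 5 reads in the Plek2+/+ erythroblasts, against 12 and 14 reads in the Plek2+/+ progenitors.

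Jund and Atf3 ran the other way. Jund stood at 106 and 112 CPM in erythroblasts and 59.5 and 61.4 CPM in progenitors under Plek2-/- (1.81-fold higher, edgeR adjusted p = 5.50e-06), and at 93.4 and 106 CPM in erythroblasts and 59.9 and 48.6 CPM in progenitors under Plek2+/+ (1.84-fold higher, edgeR adjusted p = 4.97e-06). Atf3 was 1.55-fold higher in erythroblasts under Plek2-/- and 1.74-fold higher under Plek2+/+ (edgeR adjusted p = 0.00799 and 0.00314). Both directions rest on TMM scaling: with library sizes only the median of all genes lay at -0.86 under Plek2-/- and -0.87 under Plek2+/+, where Jund stood at 0.07 under each label and was not called (edgeR adjusted p = 0.521 and 0.541), and Atf3 stood at -0.15 under Plek2-/- and -0.01 under Plek2+/+, both still above that median. The Atf3 call under Plek2-/- was also lost without Plek2-/- erythroblast replicate 2 (edgeR adjusted p = 0.0643).

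By order of group means, Fos, Fosb, Fosl2, Jun, Junb, Egr1, Egr2 and Egr3 were higher in both progenitor groups than in both erythroblast groups. Libraries of Egr3 overlapped between the populations, and those of the others did not. For Egr2 the margin was slight, 0.564 CPM (12 reads) in a Plek2+/+ progenitor library against 0.544 CPM (8 reads) in a Plek2-/- erythroblast library. The share of all genes that separate in this way was not counted, so the separation is not shown to be particular to the members. Of all genes tested 73.8% were called between the populations under Plek2+/+ and 76.7% under Plek2-/-. Neighbouring groups overlapped for Fos between the erythroblast labels, for Fosb and Jund between the labels in either population, for Egr1 between the progenitor labels, for Egr2 between the erythroblast labels, for Atf3 between Plek2+/+ erythroblasts and Plek2-/- progenitors, and for Egr3 among Plek2+/+ progenitors, Plek2-/- progenitors and Plek2+/+ erythroblasts.

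Beyond the members, 6 lists of the pathway held 118 genes. In progenitors 20 of 113 tested rose and 0 fell, against 4.5% of 13168 genes called higher and 0.402% called lower. Of the 20 that rose, 15 were among the 40 tested immediate-early genes outside the AP-1 and Egr families (median log2 0.26, all genes -0.01). Ptgs2, which makes prostaglandins, rose 4.72-fold, at 16.1 ± 0.986 CPM under Plek2-/- against 3.47 ± 0.527 CPM under Plek2+/+ (SD, n = 2; edgeR adjusted p = 0.000525). Socs3, the inhibitor of cytokine receptors that STAT3 induces, rose 2.05-fold (27.0 ± 0.808 CPM under Plek2-/-, 13.5 ± 0.526 CPM under Plek2+/+; edgeR adjusted p = 0.00154). Dusp1, a phosphatase that switches off MAP kinases, rose 1.78-fold (44.4 ± 0.197 CPM under Plek2-/-, 25.7 ± 1.80 CPM under Plek2+/+; edgeR adjusted p = 0.00190). The other 12 were Ier5, Btg1, Btg2, Klf6, Nfkbiz, Mcl1, Gadd45b, Gadd45g, Trib1, Plk2, Plk3 and Sgk1, with rises from 1.26-fold (Mcl1, a survival protein) to 2.15-fold (Gadd45g, a growth arrest protein). The count of 15 fell to 6 without Plek2+/+ progenitor replicate 2 and stood at 23 without Plek2-/- progenitor replicate 1 (22 higher and 1 lower), and the neutrophil markers rose in the same comparison.

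The other calls in progenitors lay in the remaining lists. Dusp6, a phosphatase specific to ERK, was the 1 of 11 MAP kinase feedback inhibitors called, at 1.78-fold (64.5 ± 8.21 CPM under Plek2-/- against 37.4 ± 4.50 CPM under Plek2+/+; edgeR adjusted p = 0.00580). The list of 8 serum response, ternary complex and related factors had 1 call, Ets2, which rose 1.49-fold (edgeR adjusted p = 0.00750). Ets2 is an ETS factor but not itself a ternary complex factor. Its call was lost without Plek2+/+ replicate 2, at log2 0.55. Among the MAP kinase pathway genes Mapk13, a p38 kinase, rose 2.60-fold (edgeR adjusted p = 0.0222). It lost the call without Plek2+/+ replicate 2 (edgeR adjusted p = 0.0614). Of 25 other AP-1 and bZIP partners Jdp2, a repressor that binds AP-1 sites, rose 1.41-fold (edgeR adjusted p = 0.0362; 0.104 and 0.359 without Plek2+/+ replicate 1 or 2). The Egr corepressor Nab1 stood at log2 0.07 (edgeR adjusted p = 0.657), and 0 of 2 tested Egr family partners were called, with 0 at an unadjusted p below 0.05 and 0 calls for Nab1 in any alternative.

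In erythroblasts 8 of 105 tested pathway genes were called, 4 higher and 4 lower. Over all 12241 genes tested there 2.84% were called, 0.18% as higher and 2.66% as lower. Among immediate-early genes Cdkn1a, the cell cycle inhibitor p21, rose 1.89-fold (edgeR adjusted p = 0.0216), Rgs1, a regulator of G protein signalling, 2.18-fold (edgeR adjusted p = 0.0286) and Ptgs2 2.55-fold (edgeR adjusted p = 0.0366), while the median of the 37 tested was -0.24 against 0.01 over all genes. Map2k3, a kinase above p38, rose 1.30-fold (edgeR adjusted p = 0.0420). Mapk13 fell 2.15-fold (edgeR adjusted p = 0.00731), Mapkapk2, a kinase below p38, 1.39-fold (edgeR adjusted p = 0.0161), Jdp2 1.71-fold (edgeR adjusted p = 0.0439) and Ets1 1.53-fold (edgeR adjusted p = 0.0283). Without either Plek2+/+ erythroblast library 0 of these 8 stayed called (edgeR adjusted p from 0.0521 to 0.357). Dusp6 (log2 -0.03, edgeR adjusted p = 0.953) and Nab1 (log2 -0.09, edgeR adjusted p = 0.785) were the most abundant genes of lists with 0 calls, which had 1 gene each at an unadjusted p below 0.05.

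The interaction passed for 26 of 112 pathway genes, 25 with a lower and 1 with a higher effect in erythroblasts. Over all 13365 genes tested it passed for 5.55%, 5.32% with a lower and 0.232% with a higher effect. Of 40 immediate-early genes 18 were lower, led by Socs3 (-1.24, edgeR adjusted p = 0.00184), the zinc finger factor Klf6 (-0.70, edgeR adjusted p = 0.00252) and Ier5 (-0.72, edgeR adjusted p = 0.00409), and Cdkn1a was higher (1.09, edgeR adjusted p = 0.0157). The 19 calls became 5 without Plek2+/+ progenitor replicate 2, 11 without Plek2+/+ replicate 1 or Plek2-/- replicate 2 of progenitors, and 12 without either Plek2+/+ erythroblast library. In the other lists the named genes were Jdp2 (-1.23), the basic leucine zipper repressor Nfil3 (-1.13), Ets1 (-0.95), Ets2 (-0.65), Mapk13 (-2.45), Mapk3, which encodes the kinase ERK1 (-0.58), and Dusp6 (-0.83), with edgeR adjusted p from 0.000744 to 0.0434. With 1 library left out, the call was lost in 7 of 8 fits for Ets2, 4 for Dusp6, 2 for Nfil3 and 1 for Mapk3. Ets2 was also lost with library sizes only (edgeR adjusted p = 0.0744).

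**Figure D4:**
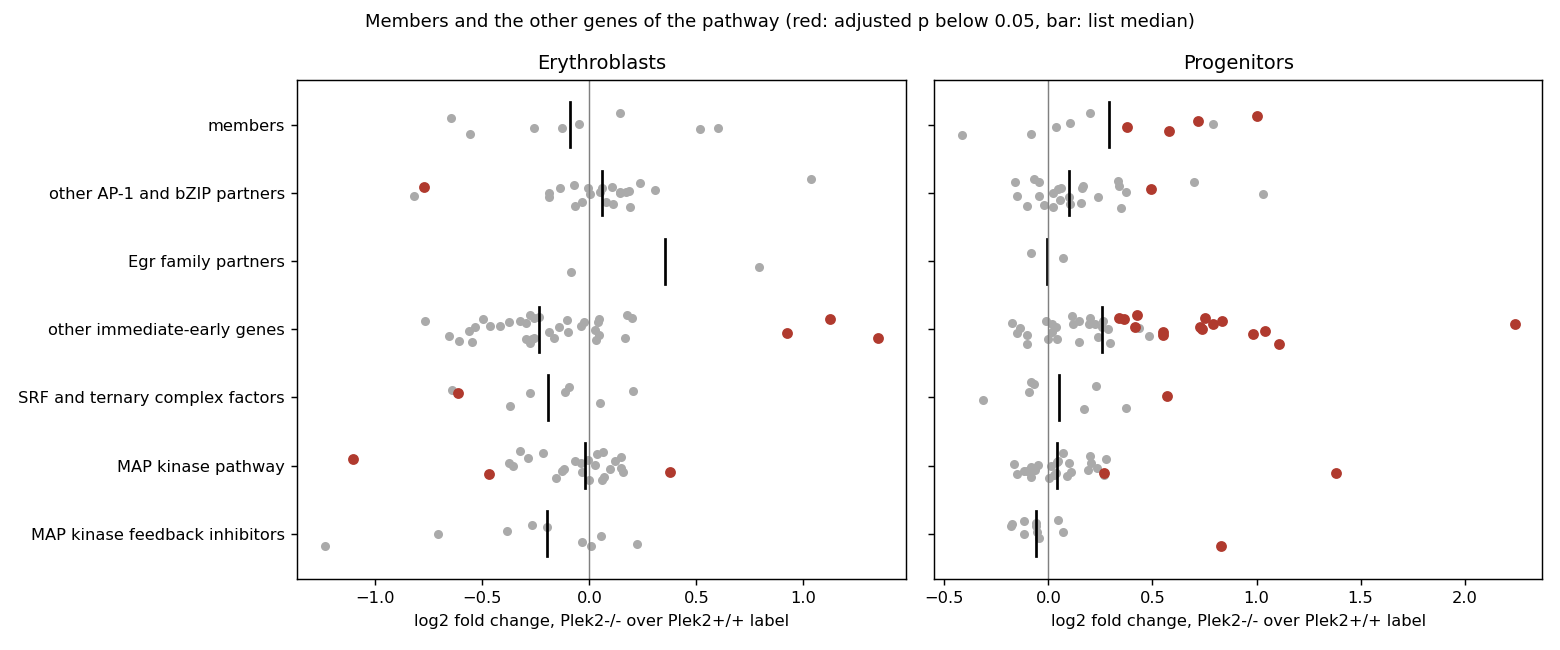
Log2 fold change, Plek2-/- over Plek2+/+ label (x axes), of the 10 members and of 6 lists of pathway genes in erythroblasts (left) and progenitors (right); each point is a gene, red points have an edgeR adjusted p below 0.05 and the bar is the list median. In progenitors 4 members and 20 other genes are red, and each of these lies above 0.

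The genes whose 8-library pattern lay closest to that of Fos, by the root-mean-square difference of centred log2 CPM over the 8 libraries and 11055 genes compared, were Plk3 (0.13), 5830416P10Rik (0.15), Sorl1 (0.19), Cpeb2 (0.19) and Gcnt2 (0.19). Plk3, a stress-responsive kinase and itself an immediate-early gene, had 3.83 and 3.33 CPM in erythroblasts labelled Plek2-/- against 4.77 and 3.94 CPM in those labelled Plek2+/+, and 12.1 and 12.3 CPM in progenitors labelled Plek2-/- against 7.42 and 7.11 CPM in those labelled Plek2+/+. Those closest to Egr1 were Hivep3 (0.20), Kit (0.22), Txk (0.23), Hlf (0.26) and Cd96 (0.26). Kit, the stem cell factor receptor used to purify the progenitors, had 20.8 and 18.3 CPM in erythroblasts labelled Plek2-/- against 21.2 and 16.2 CPM in those labelled Plek2+/+, and 117 and 163 CPM in progenitors labelled Plek2-/- against 144 and 154 CPM in those labelled Plek2+/+. For Kit, as for Egr1, replicate 2 was the higher of the Plek2-/- progenitor libraries. Likeness here is a description over 8 libraries, most of which is the gap between the populations.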

How the data were processed

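The deposited table holds raw read counts per gene symbol, not normalized, in 8 libraries. Trimming with cutadapt 1.13, alignment tool STAR 2.5.2a and counter HTSeq 0.6.1pl are named in the submitters' processing notes, beside mm10 and DESeq2 1.14.1; the annotation and strand setting were not stated. Counts were tested in R 4.3.3 by edgeR 4.0.16, with TMM scaling, the filterByExpr defaults, the quasi-likelihood test and Benjamini-Hochberg adjustment over all genes tested; called means adjusted p below 0.05. Genotype effects were fitted in each population by itself, and the interaction and population contrasts in 1 fit of 8 libraries. Positive values are higher in Plek2-/- libraries or in erythroblasts. The SE is the log2 fold change over the square root of the F statistic. CPM are on TMM-scaled totals of the 8 libraries, except the first limit for 0 reads and the sums on plain library totals. Positions and exon lengths come from GENCODE vM21 basic (GRCm38), promoters from RefSeq (GRCm38.p6).

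Replicates within a group varied beyond counting error (chi-square per degree of freedom 5.65 to 15.7). The scripts were tested on simulated data. Alternatives were DESeq2 1.42.0, limma-voom (limma 3.58.1), DESeq2 size factors, library sizes only, no filter, a replicate block, a fit of all libraries and leaving out each library. The rule for named genes takes the members and, from every list, the 3 calls of lowest adjusted p, or the most abundant gene where none was called; for likeness, the 5 closest genes of mean count 50 or more. Cxcr2, Ltf, Cdkn1a as an interaction call and the other 12 immediate-early genes that rose were named after their values were seen. The members and lists were chosen with earlier results of these data known. A result of the pathway lists is not reported here.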

Additional observations from a re-analysis of the deposited data

Results flagged for a closer look

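The genotype effect differed between the populations, by the interaction test, for 3 of the 10 members. The effect in erythroblasts minus that in progenitors was -1.02 for Fos, -0.998 for Fosl2 and -0.80 for Junb on the log2 scale (edgeR adjusted p = 0.00313, 0.0294 and 0.0125). Neutrophil markers differed in the same direction (15 of 15 tested were lower, median -2.24), as did B cell markers (4 of 10 called lower, 10 at an unadjusted p below 0.05, median -1.05), and their part in these values was not tested.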

How the results depend on the processing

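With 2 libraries a group, counts of calls moved widely, and the cause was not tested. Of 615 values of members under an alternative, 576 kept direction and call. In erythroblasts the genes called were 230 with library sizes only, 845 without the filter and 579 with a replicate block, and 25 to 995 with 1 library left out (995 without Plek2-/- replicate 1, 25 without Plek2+/+ replicate 2). Members called there were 1 (Fosl2) without the filter and 1 (Fosl2) with the replicate block, and 0 to 2 with 1 library out. Other immediate-early genes called were 9 without the filter, 6 with the block, 6 in the 8-library fit and 0 to 7 with 1 library out. In progenitors 1315 genes were called without the filter and 239 to 2649 with 1 library out (239 without Plek2+/+ replicate 2, 2649 without Plek2-/- replicate 1). Members called were 2 (Fos and Junb) in the 8-library fit and 1 to 5 with 1 library out, other immediate-early genes 6 to 23. For the interaction 1215 genes were called without the filter and, with 1 library out, 401 to 1175 genes, 1 to 3 members and 5 to 23 other immediate-early genes. 

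Uncalled log2 values near 0 changed sign. Fosb in progenitors stood at -0.0228 with library sizes only, -0.0045 in the 8-library fit and -0.0862 to 0.145 with 1 library out; Egr1 at -0.41 to 0.17 and Egr3 at -1.33 to 0.0751 with 1 library out. In erythroblasts, with 1 library out, Fos ranged from -0.29 to 0.15, Nab1 from -0.199 to 0.0145 and Dusp6 from -0.29 to 0.18. The interaction of Jund was 0.0031 with library sizes only and -0.18 to 0.12 with 1 library out, and that of Atf3 -0.46 to 0.0871 with 1 library out. For erythroblasts against progenitors, the called Atf3 values of 0.63 under Plek2-/- and 0.80 under Plek2+/+ became -0.15 and -0.0084 with library sizes only. On plain library totals the members summed to 229 CPM in Plek2-/- and 241 CPM in Plek2+/+ erythroblasts, and to 992 CPM in Plek2-/- and 758 CPM in Plek2+/+ progenitors (302, 319, 756 and 571 CPM on TMM-scaled totals). The labels do not say that replicate numbers pair samples. Correlations of deviations between same-numbered libraries ran from -0.0838 (between the progenitor groups) to 0.150 (between the Plek2-/- groups), with 0.115 between the erythroblast groups. Egr2 and Egr3 had 39 reads or fewer per library.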
